A study of Mus musculus with 36 samples.

Results

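Solute carriers are membrane proteins that move sugars, amino acids, ions, metals, vitamins and other small molecules across the cell surface or between the compartments of a cell, and their genes carry symbols that begin with Slc and a family number. The set described here held the protein-coding Slc genes that were expressed in control mouse intestine, taken as a mean of at least 5 RPKM (reads scaled to the length of the gene in kilobases and to the size of the library, as deposited) over the 3 Mlkl KO embryos taken as the controls of the D387A mutants. By this rule 160 of 368 protein-coding Slc genes (43.5%) were members and 208 were not. The bile acid carriers Slc10a2, Slc51a and Slc51b were left out by the rule. Because the level in these 3 controls chose the members, a carrier that is absent from control intestine could not be one, and every contrast with these controls is given below as a description without a test.

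An enterocyte, the absorptive cell of the intestinal villus, carries nutrients in 2 steps. Carriers in the brush border, the apical surface, take them up from the lumen, usually along a sodium or proton gradient, and other carriers in the basolateral membrane pass them to the blood. Glucose enters through Slc5a1 and leaves through Slc2a2, peptides enter through Slc15a1, neutral amino acids through Slc6a19, and iron enters through Slc11a2 and leaves through Slc40a1. Carriers of the Slc25 family sit in the inner mitochondrial membrane and those of the Slc35 family in the Golgi and endoplasmic reticulum, where every cell type needs them.

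RNA was measured in whole intestines of C57BL/6N mouse embryos at E18.5, late in gestation, with 3 embryos per group, and in mouse embryonic fibroblasts (MEFs), in 36 libraries of 12 groups. Caspase-8 is a protease that starts apoptosis and holds back necroptosis, a lytic death carried out by MLKL, and cFLIP (gene Cflar) is its catalytically inactive partner. The D387A change alters the site at which caspase-8 cuts itself between its catalytic subunits, and the C362A change replaces the catalytic cysteine. The D387A set held 6 groups. They were Mlkl KO controls, Casp8 D387A KI with Cflar and Mlkl intact (called D387A), Casp8 D387A KI Cflar KO Mlkl KO (D387A-Cflar), and the latter with Casp1 KO (D387A-Cflar-Casp1), with Casp1 KO Ifnar1 KO (D387A-Cflar-Casp1-Ifnar1) or with Casp1 KO Fadd KO (D387A-Cflar-Casp1-Fadd). The C362A set held its own Mlkl KO controls, Casp8 C362A KI Mlkl KO (C362A), the same with Casp1 KO (C362A-Casp1) and Casp8 C362A KI Cflar KO Mlkl KO (C362A-Cflar). The labels do not name a set for the 2 groups of Mlkl KO intestines, and each was placed by the style of its sample titles, so the choice of members and every contrast with Mlkl controls rest on this placement. MEFs were of the Casp8 D387A KI Cflar KO Mlkl KO genotype or Mlkl KO. Caspase-1, an inflammatory protease, is the product of Casp1, Ifnar1 encodes a subunit of the type I interferon receptor and Fadd the adaptor that recruits caspase-8. The alleles are present in every cell of the embryo, and the tissue is whole intestine, so fewer cells of a type and less RNA per cell cannot be told apart in any value below. D387A differs from D387A-Cflar at Mlkl as well as at Cflar.

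Reads on genes numbered 17943524 to 27721024 per library in the D387A set, 21757868 to 31052238 in the C362A set and 20927014 to 32307629 in MEFs. Levels from here on, other than those that chose the members, are RPKM on library sizes scaled by TMM (edgeR's trimmed mean of M-values). Casp1 was at or below 0.142 RPKM in the 4 Casp1 KO intestine groups and at 28.4 to 83.0 elsewhere, Fadd was at 0.169 to 0.259 against 6.53 to 12.9, and Ifnar1 at 8.50 to 9.70 against 19.5 to 26.4. Cflar was at 5.04 to 5.64 RPKM in C362A-Cflar against 6.77 to 9.21 in the rest of its set, at 4.30 to 4.90 in D387A-Cflar against 5.58 to 6.73 in D387A and the controls, and at 7.10 to 7.66 in mutant MEFs against 10.8 to 11.7. In the Cflar KO groups that also lack Casp1 it was at 5.38 to 7.55 and overlapped those of intact Cflar. Mlkl was at 1.07 to 31.2 in KO intestine groups against 5.42 to 6.94 in D387A and did not separate the labelled genotypes, and reads of a whole gene do not check a deletion of part of it or a point mutation of Casp8. The third D387A-Cflar-Casp1 embryo stood apart from its group for several members. It did so too for Mlkl, at 22.99 RPKM against 3.13 and 3.72 in the others of its group and 22.9 to 31.2 in the groups that also lack Ifnar1 or Fadd, and for Casp8, at 35.5 against 25.8 and 24.5. Some counts and changes that rest on this embryo are also given without it, and others are given only with it. Markers of absorptive enterocytes (Alpi, Apoa1, Apoa4, Fabp1, Fabp2, Lct, Anpep and Dpp4) summed to 33992 to 38719 RPKM in the Mlkl controls of the D387A set and 29552 to 48492 in those of the C362A set, so the labelled tissue carried its defining markers, and to 9.33 to 15.1 in MEFs.

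In the deposited control values the members had a median of 18 RPKM. The highest was Slc25a3, the mitochondrial phosphate carrier, at 385 ± 19.4 RPKM (SD, n = 3). Slc9a3r1, which encodes a scaffold protein of the brush border and is a member by its symbol, stood at 357 ± 15.8, and Slc40a1, the iron exporter ferroportin, at 191 ± 11.5. Just inside the threshold lay Slc12a4, a potassium-chloride cotransporter, at 5.22, and just outside it Slc25a26 at 4.95 and Slc7a6 at 4.93. Members named for a carrier without being one were Slc9a3r1, Slc9a3r2, Slc4a1ap and Slc7a6os.

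Members were grouped by the usual substrate of the family their number names. By this grouping 26 belonged with amino acids or peptides, 25 with mitochondrial carriers, 22 with metals, 21 with nucleotide sugars or sugar phosphates, 20 with inorganic ions, 17 with lipids, vitamins or nucleosides, 16 with carboxylates and other organic ions and 8 with sugars, 3 were other carriers and 2 scaffold proteins. Because the number alone decided, the amino acid group also holds Slc7a6os, which is no carrier, and the nucleobase carrier Slc43a3, and the inorganic ion group holds Slc4a1ap, which is no carrier. Slc7a6os and Slc4a1ap were called in none of the comparisons below. The median control level of the 8 substrate groups ran from 12.2 RPKM for inorganic ions to 21.4 for sugars. The most abundant member of each was Slc3a1 for amino acids (159 RPKM, the heavy subunit of the cystine and dibasic amino acid carrier), Slc25a3 for mitochondria, Slc40a1 for metals, Slc35c2 for nucleotide sugars (113), Slc34a2 for inorganic ions (79.4, a sodium-phosphate cotransporter), Slc27a4 for lipids (138, a fatty acid transport protein), Slc17a5 for organic ions (179, the lysosomal sialic acid carrier sialin) and Slc5a1 for sugars (83.1).

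In D387A intestines, with Cflar intact, the members stood near the levels of the Mlkl controls. Of the 160 members 0 lay past 2-fold in either direction, where 0.485% of 18360 genes tested were past it upward and 0.790% downward. Summed over members, the TMM-scaled level was 7198 to 7945 RPKM in D387A embryos and 6672 to 7274 in the controls. D387A embryos served as the reference for the tests of this set because the rule did not use them. Yet all 160 members averaged 5 RPKM or more in D387A and in the Mlkl controls of the C362A set too. Members were thus expressed in these references, with room to fall, whereas the shares of all genes below include genes under 5 RPKM. These shares are not matched for level, so they do not show whether the carriers fell more than other genes of their level.

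In D387A-Cflar intestines much of the carrier repertoire was lower. Of 160 members, all of which passed the filter on low counts, 71 fell and 9 rose against D387A (edgeR quasi-likelihood test, log2 fold change past 1 in size and adjusted p under 0.05 over all genes), and 80 met neither. Of all 18360 genes tested 14.0% were called lower and 10.2% higher, so 44.4% of members against 14.0% of genes were lower. The median log2 fold change of the members was -0.69, beside 0.01 for all genes tested. The summed member level was 3618 to 3965 RPKM in the 3 D387A-Cflar embryos, below every D387A embryo, and 133 of the 160 members still averaged 5 RPKM or more, while 7 averaged under 1. Among the 144 Slc genes tested that were not members, 31 were called lower and 19 higher.

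Markers of the epithelium gave the following values beside these counts. Summed absorptive enterocyte markers were 1400 to 2868 RPKM in D387A-Cflar against 40363 to 42420 in D387A, and 8 of 8 were called lower. Summed general epithelial markers (Epcam, Krt8, Krt18, Krt19, Cdh1 and Cldn7) were 2256 to 2428 RPKM in D387A-Cflar, and 1 of 6 was called, higher. Myeloid markers (Ptprc, Csf1r, Cd68, Itgam, S100a8 and S100a9) summed to 89.7 to 271 RPKM against 76.3 to 93.8 in D387A, and 5 of 6 were called higher and 1 lower, at a median of 1.42. Of 4 hepatocyte markers and of 6 neuron and glia markers 1 each was lower. The part of the enterocyte or other cell content in the carrier levels was not tested.

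**Figure D1:**
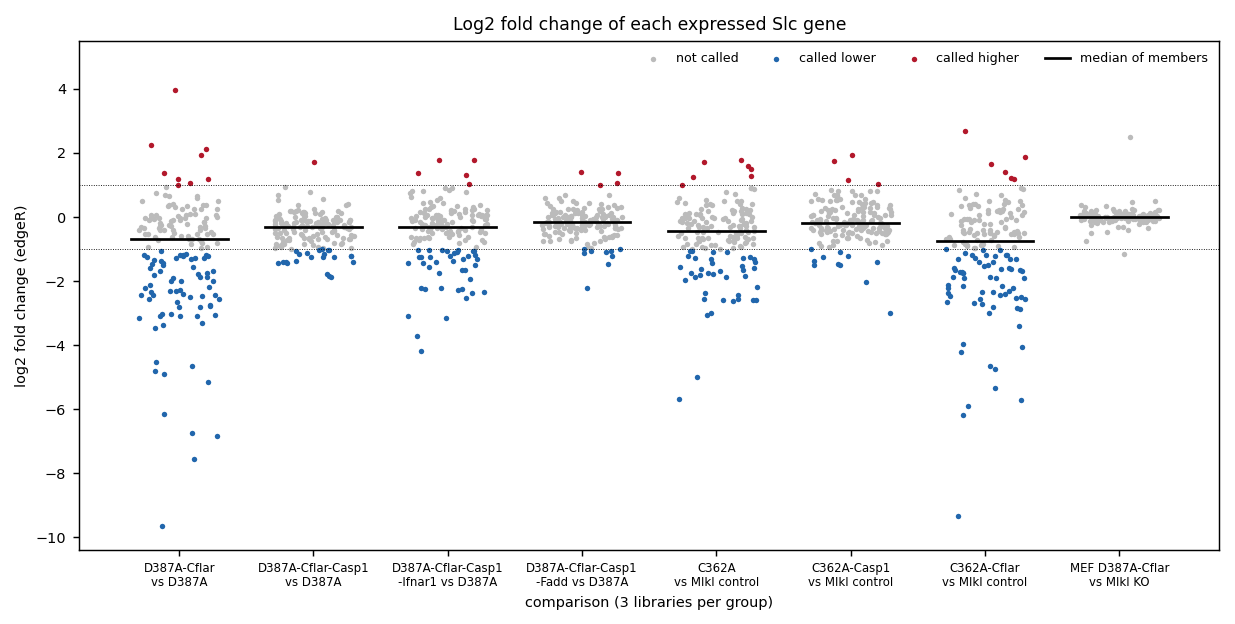
Log2 fold change (vertical axis) of each member in 7 intestine comparisons and in MEFs (horizontal axis), with 3 libraries per group. Red points were called higher, blue points lower and grey points not called, black bars mark the median of the members and dotted lines mark a 2-fold change. The column of D387A-Cflar reaches from -9.66 for Slc2a2 to 3.97 for Slc16a3, while the MEF column holds no called member.

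Sugar carriers fell in 5 of 8 cases and rose in 1, with a median log2 fold change of -1.96. Slc2a2, the basolateral glucose and fructose carrier GLUT2, was at 31.3, 21.1 and 30.2 RPKM in the D387A embryos and at 0.0155, 0.0562 and 0.0287 in the D387A-Cflar embryos. These levels stand for 2849, 2811 and 4337 reads against 2, 7 and 4, so the size of the change rests on a few reads in the mutant. The log2 fold change was -9.66 ± 0.53 (SE, adjusted p = 9.97e-11), the largest fall of any member in this comparison. Slc5a11, a sodium-coupled myo-inositol carrier, went from 41.7, 40.1 and 43.5 RPKM to 0.252, 0.261 and 0.150 (-7.56 ± 0.37, adjusted p = 2.32e-11). Slc5a1, the brush border sodium-glucose carrier SGLT1, fell far less, from 131, 106 and 128 RPKM to 42.1, 38 and 32.3 (-1.70 ± 0.13, adjusted p = 3.45e-09). The glucose carrier Slc2a1 (GLUT1), which most cell types use, moved the other way. It stood at 34.2, 29.8 and 29.5 RPKM in D387A and at 126, 172 and 114 in D387A-Cflar, with no overlap of the groups, and rose by 2.14 ± 0.15 on the log2 scale (adjusted p = 1.27e-09).

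Amino acid and peptide carriers held 15 members that fell, 4 that rose and 7 that met neither, with a median of -1.94. Slc6a19, the brush border carrier of neutral amino acids, was at 86.8, 74.2 and 78.4 RPKM in D387A and at 4.48, 3.08 and 2.95 in D387A-Cflar (-4.51 ± 0.17, adjusted p = 2.05e-12). Slc15a1, the peptide carrier PEPT1, was at 29.3, 22 and 26.3 RPKM against 5.02, 3.61 and 2.51 (-2.80 ± 0.21). In the pair that takes up cystine and dibasic amino acids, Slc3a1 changed by -2.30 ± 0.19 and its light subunit Slc7a9 by -1.89 ± 0.15, and the basolateral light subunits Slc7a7 and Slc7a8 changed by -1.99 ± 0.10 and -3.36 ± 0.23. Slc6a20a, an imino acid carrier, changed by -2.12 ± 0.19, and Slc38a3, a glutamine carrier, by -2.40 ± 0.16. Slc3a2, the heavy subunit that Slc7a5, Slc7a7 and Slc7a8 share, changed by -1.15 ± 0.09, from 128, 121 and 131 RPKM to 54.4, 58.0 and 58.3. The taurine carrier Slc6a6 (-0.82 ± 0.15) passed the adjusted p but not the 2-fold limit.

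The 4 that rose in this group were Slc7a5, Slc7a1, Slc6a14 and Slc1a5. Slc7a5, the light subunit LAT1 that carries large neutral amino acids, stood at 7.96, 8.49 and 8.45 RPKM in D387A and at 32.6, 37.4 and 47.6 in D387A-Cflar (2.24 ± 0.15, adjusted p = 1.41e-09). Slc7a1, a cationic amino acid carrier, went from 5.89, 6.05 and 6.34 RPKM to 20.8, 24.6 and 24.5 (1.94 ± 0.11). Both are members of a list of 10 carriers known to be induced when amino acids are short, of which 5 are members of the present set. Of these 5, Slc7a5, Slc7a1 and Slc1a5 were called higher and Slc3a2 lower, and Slc38a2 was not called (0.94 ± 0.07). Slc1a5, the glutamine carrier ASCT2, sat at the limit (1.00 ± 0.11), and its call was lost with DESeq2, with 3 other settings and without either of 2 embryos, although every D387A-Cflar embryo (48.1, 51.7 and 45.6 RPKM) lay above every D387A embryo (26.2, 24.2 and 22.3). Slc6a14, a broad amino acid carrier, was at 8.38, 8.34 and 9.34 RPKM in D387A and at 29.2, 16 and 13.8 in D387A-Cflar (1.18 ± 0.35, adjusted p = 0.00727), and without the first D387A-Cflar embryo the change was 0.78 with an adjusted p of 0.067.

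Among 20 carriers of inorganic ions 9 fell and 1 rose, with a median of -0.83. Slc34a3, a sodium-phosphate cotransporter, was at 40.4, 33.9 and 43.2 RPKM in D387A and at 0.495, 0.307 and 0.293 in D387A-Cflar (-6.74 ± 0.22, adjusted p = 5.08e-13). Its relative Slc34a2 fell less, from 118, 99.4 and 108 RPKM to 22.8, 11.5 and 13.1 (-2.78 ± 0.22). Slc20a1, a phosphate carrier of another family, stood at 15.2, 13.9 and 14.5 RPKM against 19.5, 21.3 and 20.4 and was not called (0.49 ± 0.08). The 3 phosphate carriers thus moved by unequal amounts. The chloride-bicarbonate exchangers Slc26a3 (-2.76 ± 0.18) and Slc26a6 (-2.64 ± 0.22), the sulfate carrier Slc26a1 (-5.16 ± 0.46) and the sodium-proton exchanger Slc9a3 (-1.78 ± 0.12) were called lower. The sodium-potassium-chloride cotransporter Slc12a2, known for chloride secretion in crypt cells, was the 1 that rose, from 21.9, 19.9 and 20.7 RPKM to 47.6, 70.0 and 43.8 (1.37 ± 0.14, adjusted p = 1.57e-07). Slc9a3r1, the scaffold that binds Slc9a3, changed by -1.80 ± 0.11, from 501, 448 and 484 RPKM to 154, 131 and 125.

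Of the 16 carboxylate and organic ion carriers 10 fell and 1 rose. Slc47a1, an exporter of organic cations, was at 16.9, 12.7 and 14.6 RPKM in D387A and at 0.196, 0.271 and 0.151 in D387A-Cflar (-6.16 ± 0.54, adjusted p = 2.69e-08). Slc17a5 went from 270, 209 and 242 RPKM to 10.8, 6.35 and 8.57 (-4.80 ± 0.29), and Slc13a2, a sodium-dicarboxylate carrier, from 37.6, 42.9 and 44.6 to 10.3, 8.19 and 4.52 (-2.44 ± 0.24). The member that rose most of all 160 belongs here. Slc16a3, the lactate carrier MCT4 of glycolytic cells, stood at 5.13, 5.28 and 5.17 RPKM in D387A and at 70.8, 102 and 72.0 in D387A-Cflar, and rose by 3.97 ± 0.24 on the log2 scale (adjusted p = 3.35e-10). The lactate and butyrate carrier Slc16a1 changed by 0.69 ± 0.09 and was not called.

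Lipid, vitamin and nucleoside carriers fell in 9 of 17 cases and rose in 0, with a median of -1.05. Slc23a1, a sodium-coupled vitamin C carrier, was at 21.3, 18.3 and 22.4 RPKM in D387A and at 0.243, 0.0739 and 0.211 in D387A-Cflar (-6.85 ± 0.25, adjusted p = 1.51e-12). Slc46a3, a lysosomal carrier, changed by -4.89 ± 0.21, the fatty acid transport protein Slc27a4 by -3.16 ± 0.13 and the proton-coupled folate carrier Slc46a1 by -3.02 ± 0.17. Slc46a1 was at 30.3, 27.5 and 33 RPKM against 3.62, 4.11 and 3.50.

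Of 22 metal carriers 8 were lower and 0 higher, with a median of -0.50. The iron importer Slc11a2 was at 67.7, 73.8 and 79.0 RPKM in D387A and at 14.1, 17 and 10.1 in D387A-Cflar (-2.42 ± 0.17), and the exporter Slc40a1 at 279, 232 and 271 against 88.1, 86.0 and 59.6 (-1.74 ± 0.14). The zinc importer Slc39a4 and the zinc exporter Slc30a1 both changed by -1.29, with SEs of 0.17 and 0.13. The manganese carriers Slc39a14 (-0.29 ± 0.14) and Slc30a10 (-0.82 ± 0.18) were not called.

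Among carriers of the cell's internal membranes, 6 of 25 mitochondrial carriers fell and 1 rose, and 6 of 21 nucleotide sugar and sugar phosphate carriers fell and 1 rose, beside 14.0% and 10.2% of all genes. The most abundant member, Slc25a3, was at 511, 490 and 500 RPKM in D387A and at 248, 278 and 250 in D387A-Cflar, and with -0.95 ± 0.09 it stayed just inside the 2-fold limit. The adenine nucleotide carriers Slc25a4 (0.26 ± 0.08) and Slc25a5 (-0.07 ± 0.08) and the mitochondrial iron carrier Slc25a37 (-0.31 ± 0.11) were not called. Slc25a24, which exchanges ATP for phosphate across the inner mitochondrial membrane, was the mitochondrial carrier that rose (1.19 ± 0.10, from 14.4, 13.1 and 14.8 RPKM to 30.4, 32.1 and 34.4). Slc37a4, the glucose-6-phosphate carrier of the endoplasmic reticulum, changed by -2.18 ± 0.19 and Slc35c2 by -2.42 ± 0.09, and Slc37a2, a sugar phosphate carrier, by -4.65 ± 0.17.

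**Figure D2:**
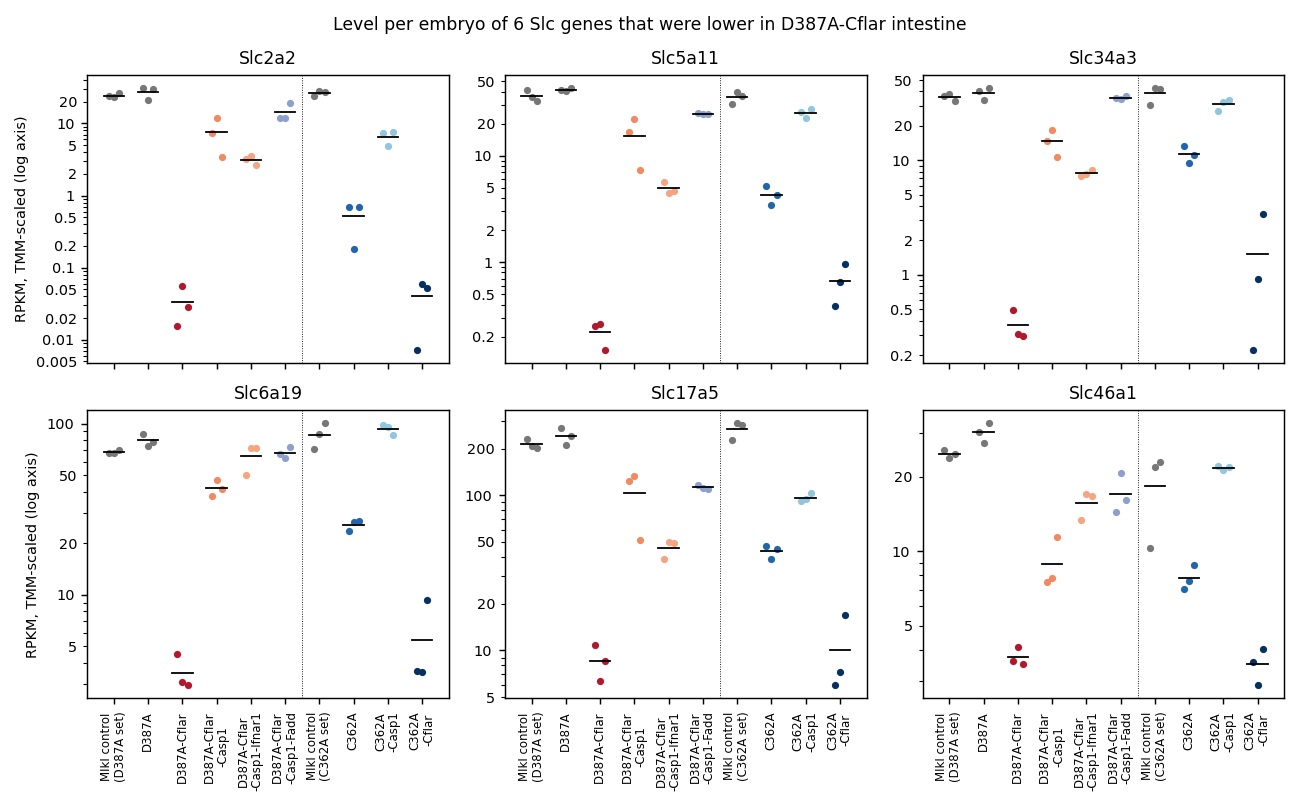
RPKM on TMM-scaled library sizes (log axis) of Slc2a2, Slc5a11, Slc34a3, Slc6a19, Slc17a5 and Slc46a1 in each embryo of the 10 intestine groups. Points are embryos, bars are means of 3 and the dotted vertical line separates the D387A from the C362A set, which were scaled separately. D387A-Cflar and C362A-Cflar embryos are the lowest of their sets for Slc2a2, Slc5a11, Slc34a3 and Slc6a19.

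The RefSeq start regions (GRCm38.p6, 250 bases before to 50 after the annotated start, 300 in all) of the pair with the largest falls, Slc2a2 and Slc5a11, and of a pair that rose, Slc16a3 and Slc2a1, are shown because these are the members with tabulated regions at the ends of the range of changes, and capitals mark matches to any of 8 motifs searched on both strands. Slc2a2 lies at chr3:28697653-28697952 on the plus strand, Slc5a11 at chr7:123214616-123214915 on the plus strand, Slc16a3 at chr11:120948817-120949116 on the plus strand and Slc2a1 at chr4:119108495-119108794 on the plus strand.
Slc2a2: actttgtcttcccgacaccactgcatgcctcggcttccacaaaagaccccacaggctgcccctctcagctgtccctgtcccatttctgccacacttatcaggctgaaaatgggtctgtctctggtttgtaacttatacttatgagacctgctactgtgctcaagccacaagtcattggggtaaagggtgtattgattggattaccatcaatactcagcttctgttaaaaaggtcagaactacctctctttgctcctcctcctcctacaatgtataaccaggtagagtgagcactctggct
Slc5a11: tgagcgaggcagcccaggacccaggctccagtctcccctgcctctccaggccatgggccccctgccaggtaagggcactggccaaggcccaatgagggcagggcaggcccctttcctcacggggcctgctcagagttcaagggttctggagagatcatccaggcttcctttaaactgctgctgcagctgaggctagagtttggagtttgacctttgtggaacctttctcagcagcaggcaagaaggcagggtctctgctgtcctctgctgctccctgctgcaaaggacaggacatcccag
Slc16a3: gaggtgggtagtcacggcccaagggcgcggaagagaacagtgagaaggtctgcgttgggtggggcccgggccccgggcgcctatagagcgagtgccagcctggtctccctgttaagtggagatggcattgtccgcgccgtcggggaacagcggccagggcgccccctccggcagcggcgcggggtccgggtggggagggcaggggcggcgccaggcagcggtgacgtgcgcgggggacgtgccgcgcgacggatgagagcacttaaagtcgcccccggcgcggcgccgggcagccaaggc
Slc2a1: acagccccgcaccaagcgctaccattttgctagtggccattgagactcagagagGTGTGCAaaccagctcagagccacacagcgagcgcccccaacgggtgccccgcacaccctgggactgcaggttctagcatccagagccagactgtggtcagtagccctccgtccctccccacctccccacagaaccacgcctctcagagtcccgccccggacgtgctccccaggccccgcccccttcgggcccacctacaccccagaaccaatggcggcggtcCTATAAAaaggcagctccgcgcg

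Among the motifs, with the share of all 32851 tabulated start regions that held each, were those of HNF4 (CAAAGTCCA, 0.475%), GATA factors (AGATAA, 11.2%), CDX (TTTATNG, 10.9%), the interferon response (3.44%), NF-kB (1.47%), the metal response (TGCGCNC or TGCACNC, 25.7%) and the amino acid response (TGATGNAA, 3.97%), with the long ones given by name. In Slc2a1 a metal response match ran from -196 to -190, counting the start as 0, and a CDX match from 27 to 33. The windows of Slc2a2, Slc5a11 and Slc16a3 held no match. A match is a run of letters and not a shown binding site, and the absence of a match speaks only of these letters in this window. A start region was tabulated for 122 of the 160 members (76.2%), so a share of members with each motif was void and is not given.

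**Figure D3:**
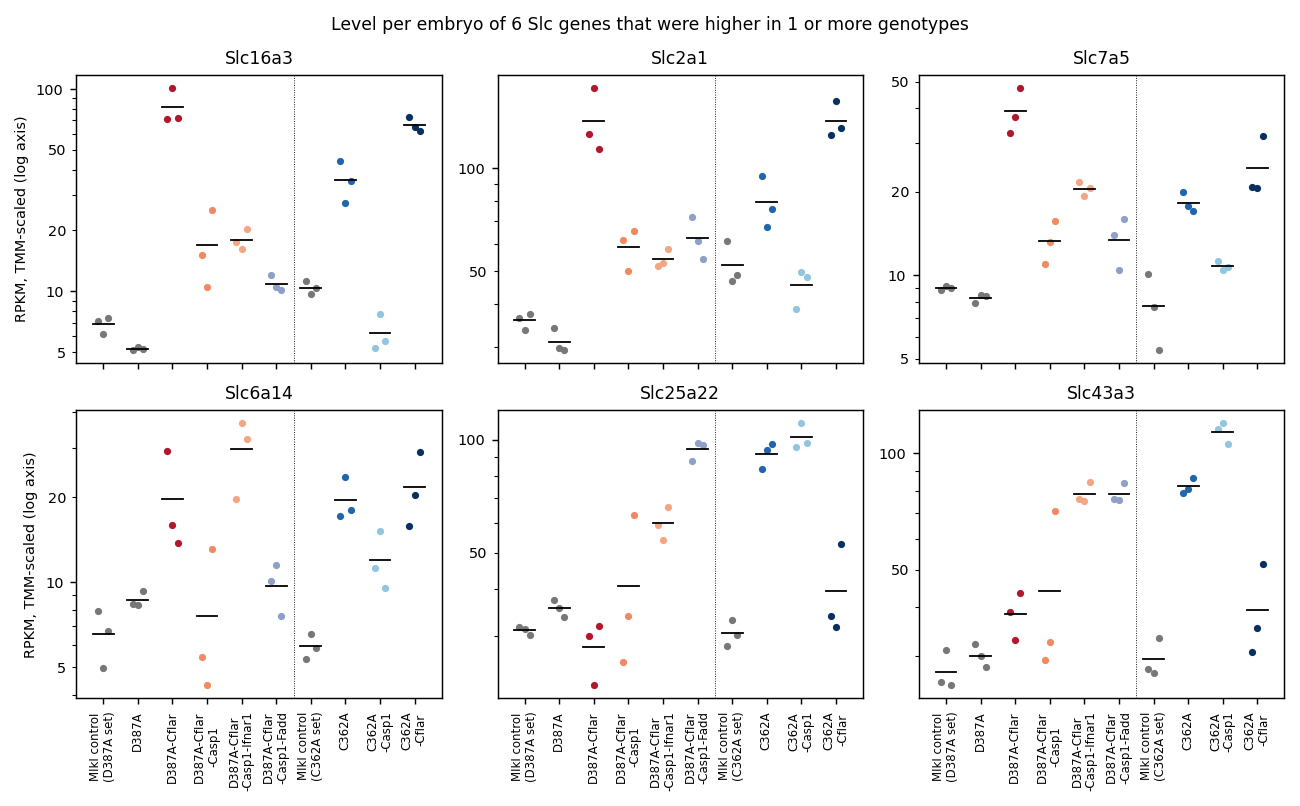
RPKM on TMM-scaled library sizes (log axis) of Slc16a3, Slc2a1, Slc7a5, Slc6a14, Slc25a22 and Slc43a3 in each embryo of the 10 intestine groups, with bars at the mean of 3. Slc16a3, Slc2a1 and Slc7a5 are highest in D387A-Cflar within their set, whereas Slc25a22 and Slc43a3 stand at about the D387A level there and are higher in D387A-Cflar-Casp1-Fadd, C362A and C362A-Casp1, and Slc43a3 also in D387A-Cflar-Casp1-Ifnar1.

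In the D387A-Cflar-Casp1 embryos 22 members were lower and 1 higher than in D387A, where 3.01% of all genes were lower and 2.63% higher, and the median of the members was -0.32. The largest falls were those of Slc2a2 (-1.88 ± 0.30), Slc46a3 (-1.83 ± 0.18) and Slc46a1 (-1.77 ± 0.15), and the 1 rise was Slc16a3 (1.71 ± 0.23). Slc46a1 was at 7.49, 7.79 and 11.4 RPKM in these embryos. Without the third embryo, 15 members were called. Markers of absorptive enterocytes summed to 18264 to 24996 RPKM, with 3 of 8 called lower, and 6 of 6 erythroid markers (globin genes and Alas2 among them) were called higher than in D387A, at a summed 1244 to 7174 RPKM. Of 4 hepatocyte markers 1 was lower. Their part in these values was not tested.

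Tested directly against D387A-Cflar, the loss of Casp1 went with 49 members higher and 8 lower, at a median of 0.38. Of all genes 8.88% were called higher and 4.51% lower. Amino acid carriers rose in 14 of 26 cases and fell in 3, lipid and vitamin carriers rose in 7 of 17, and sugar carriers rose in 4 of 8 and fell in 1. Slc2a2 was at 7.25, 11.8 and 3.42 RPKM with Casp1 lost (7.78 ± 0.55, adjusted p = 7.01e-09), the third embryo being the lowest, and Slc5a11 at 16.5, 21.9 and 7.40 (6.11 ± 0.37). Slc34a3 stood at 14.8, 18.6 and 10.8 RPKM (5.33 ± 0.22) and Slc6a19 at 37.6, 46.9 and 41.5 (3.58 ± 0.17). Slc23a1 rose by 5.84 ± 0.25. In each of these genes every D387A-Cflar-Casp1 embryo lay above every D387A-Cflar embryo. The members that fell were led by Slc16a3, which stood at 15.2, 10.5 and 25.2 RPKM (-2.27 ± 0.22, adjusted p = 3.92e-07), Slc7a5 (-1.56 ± 0.15) and Slc6a14 (-1.37 ± 0.35, not called at -0.97 without the first D387A-Cflar embryo, and -2.01 without the third D387A-Cflar-Casp1 embryo). Slc2a1 fell by 1.22 on the log2 scale, to 61.7, 50.1 and 65.3 RPKM. Enterocyte markers moved the same way, with 8 of 8 called higher, as did 6 of 6 erythroid markers. Of 6 myeloid markers 3 were lower and 1 higher (median -0.99), and of the general epithelial and smooth muscle markers 1 each was lower and of 4 hepatocyte markers 1 was higher. The part of these cells was not tested.

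With Ifnar1 lost on top of Casp1, the largest falls were those of the sulfate carrier Slc26a1 and the organic cation carrier Slc47a1. Of 160 members 10 were lower and 1 higher in D387A-Cflar-Casp1-Ifnar1 than in D387A-Cflar-Casp1, with 2.03% of all genes lower and 3.28% higher. By substrate group, 3 of 8 sugar carriers, 2 of 16 organic ion carriers, 2 of 25 mitochondrial carriers and 1 each of the inorganic ion, amino acid and nucleotide sugar groups were lower. Slc26a1 was at 5.37, 6.28 and 1.28 RPKM before and at 0.676, 0.646 and 0.495 after (-2.83 ± 0.40, adjusted p = 0.000316). Slc47a1 went from 5.77, 9.55 and 1.39 RPKM to 0.869, 0.738 and 0.801 (-2.80 ± 0.44, adjusted p = 0.000563, and -2.16 without the second D387A-Cflar-Casp1 embryo). In both genes the third D387A-Cflar-Casp1 embryo, whose Ifnar1 is intact, was the lowest of its group and nearest to the other genotype. Its Mlkl level of 22.99 RPKM also lay within the 22.9 to 27.9 of the Ifnar1 KO group, away from the 3.13 and 3.72 of its own. Ifnar1 loss and whatever set the Mlkl level cannot be told apart in this comparison. Slc5a11 was at 5.65, 4.44 and 4.69 RPKM after Ifnar1 loss (-1.63 ± 0.25). Slc2a2 was called lower (-1.27 ± 0.31) although its groups overlapped, at 3.19, 3.53 and 2.63 RPKM against 7.25, 11.8 and 3.42, and it was not called without the second D387A-Cflar-Casp1 embryo (-0.78, adjusted p = 0.054) or when these groups were fitted alone. Slc6a14 rose, from 5.45, 4.32 and 13.1 RPKM to 19.8, 36.6 and 32.3 (1.96 ± 0.35, adjusted p = 0.00112), and by 2.60 without the third D387A-Cflar-Casp1 embryo. The number of members called was 4 without the second D387A-Cflar-Casp1 embryo and 20 without the third. Against D387A, 39 members were lower and 5 higher, with 6.49% and 6.80% of all genes. The largest falls were Slc47a1 (-4.20 ± 0.45), Slc26a1 (-3.72 ± 0.41) and Slc2a2 (-3.14 ± 0.32), and the largest rises Slc16a3 (1.79 ± 0.23), Slc6a14 (1.77 ± 0.35) and Slc43a3 (1.39 ± 0.23), a nucleobase carrier that its family number places with the amino acid carriers. Summed enterocyte markers were 20520 to 29107 RPKM in these embryos, with 2 of 8 called lower than in D387A-Cflar-Casp1 and 3 of 8 lower than in D387A. Pancreatic acinar markers (Cpa1, Prss2, Cel, Pnlip and Ctrb1), of which 4 were tested, summed to 48.1 to 108 RPKM, against 2.27 to 3.42 in D387A-Cflar-Casp1 and 10.4 to 13.1 in D387A, and 4 of 4 were higher than in either group. Erythroid markers summed to 533 to 1717 RPKM, and 5 of 6 were lower than in D387A-Cflar-Casp1 and 4 of 6 lower than in D387A. Myeloid markers summed to 110 to 139 RPKM, and 3 of 6 were higher than in D387A. Of 4 hepatocyte markers 1 was lower than in either group, at sums of 1.29 to 1.80 RPKM against 4.17 to 9.89 in D387A-Cflar-Casp1 and 8.33 to 15.5 in D387A, and 1 of 6 neuron and glia markers was lower than in D387A. The part of these cells in the carrier values was not tested.

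Fadd loss on top of Casp1 loss went with more members called higher than lower, a tilt that all genes shared. Of 160 members 8 were higher and 0 lower in D387A-Cflar-Casp1-Fadd than in D387A-Cflar-Casp1, with 2.56% of all genes higher and 0.877% lower. At an unadjusted edgeR p under 0.05, 17 members were lower, and DESeq2 and limma-voom also called 0 lower. The largest rises were Slc38a3 (1.27 ± 0.14), Slc34a3 (1.26 ± 0.15, adjusted p = 3.75e-05) and Slc25a22, the mitochondrial glutamate carrier (1.21 ± 0.22, adjusted p = 0.00125). Slc34a3 reached 35.3, 34.1 and 36.6 RPKM, beside 40.4, 33.9 and 43.2 in D387A. Slc5a1 reached 176, 177 and 197 RPKM (1.02 ± 0.12, and not called at 0.90 without the first D387A-Cflar-Casp1 embryo or 0.96 without the third embryo with Fadd lost), beside 131, 106 and 128 in D387A. Slc25a22 was at 25.6, 34 and 63.2 RPKM in D387A-Cflar-Casp1 and at 87.9, 98.2 and 97.2 with Fadd lost, and its call was lost without the first D387A-Cflar-Casp1 embryo (0.96) and when these groups were fitted alone (adjusted p = 0.054). The number of members called was 5 without the first D387A-Cflar-Casp1 embryo and 13 without the third. Mlkl was at 27.6 to 31.2 RPKM with Fadd lost, against 3.13, 3.72 and 22.99 in D387A-Cflar-Casp1. Fadd loss and whatever set the Mlkl level cannot be told apart here either. Erythroid markers were lower in 6 of 6 cases with Fadd lost, at a summed 577 to 1516 RPKM against 1244 to 7174. Enterocyte markers were higher in 2 of 8 cases and pancreatic acinar markers in 1 of 4, with acinar sums of 3.05 to 56.9 RPKM against 2.27 to 3.42. Their part in these values was not tested.

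Against D387A the D387A-Cflar-Casp1-Fadd embryos had 9 members lower and 4 higher, with 1.56% of all genes lower and 2.89% higher, and a median of -0.16. Lower were among others Slc47a1 (-2.21 ± 0.39), Slc26a6 (-1.45 ± 0.21) and Slc37a4 (-1.21 ± 0.18), and higher were Slc25a22 (1.41 ± 0.22), Slc43a3 (1.38 ± 0.23), Slc16a3 (1.07 ± 0.22) and Slc2a1 (1.00 ± 0.14). The call of Slc16a3 was lost without the first D387A-Cflar-Casp1-Fadd embryo (0.98). That of Slc2a1, which sat at the limit, was lost without the same embryo (0.89), without the second or the third D387A embryo (0.97 and 0.96) and with limma-voom (0.998). Slc43a3 stood at 76.0, 75.8 and 83.5 RPKM against 32.1, 29.9 and 28.1 in D387A. The summed member level was 6688 to 6939 RPKM, and summed enterocyte markers were 35389 to 40858, with 1 of 8 called higher than in D387A. Of 6 neuron and glia markers 1 was lower, and of 4 acinar markers tested 0 were called, at a median of 2.99. The part of these cells was not tested.

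As a description, the same groups set beside the Mlkl controls that chose the members had 65 members past 2-fold lower and 9 higher in D387A-Cflar (13.5% and 9.85% of all genes), 13 and 1 in D387A-Cflar-Casp1 (2.95% and 3.23%), 26 and 6 in D387A-Cflar-Casp1-Ifnar1 (6.09% and 7.38%) and 2 and 2 in D387A-Cflar-Casp1-Fadd (1.69% and 3.83%). In these controls Slc2a2 was at 23.6, 22.9 and 26.3 RPKM, Slc16a3 at 7.13, 6.16 and 7.40 and Slc6a14 at 7.94, 4.96 and 6.73.

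**Figure D4:**
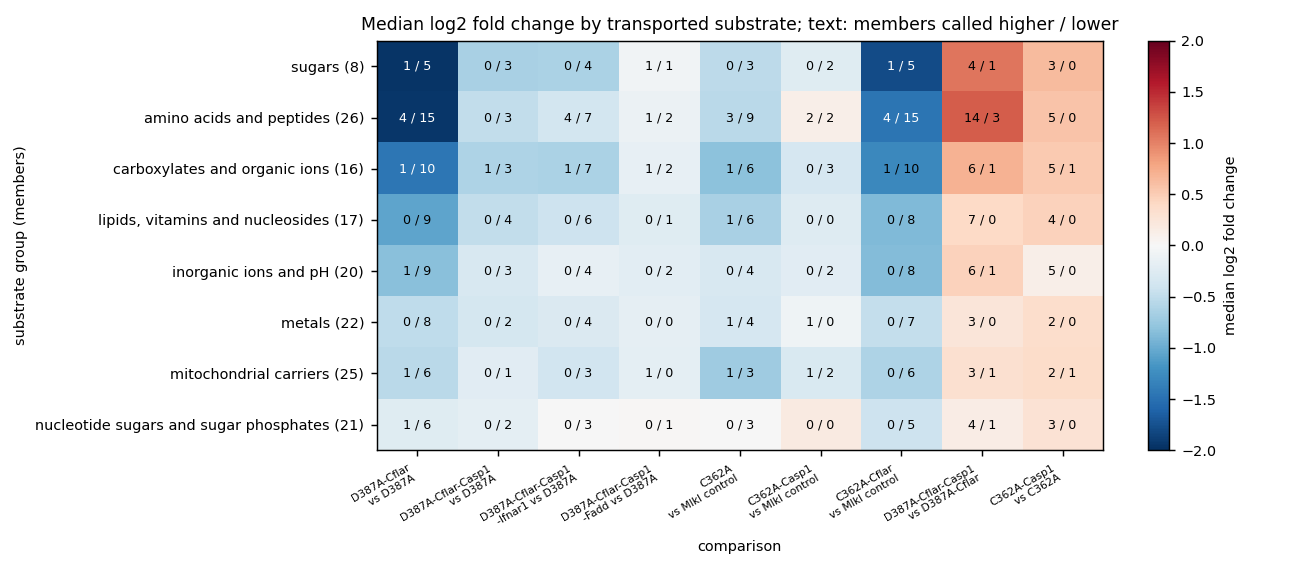
Median log2 fold change (colour, limited to -2 to 2) of the members of 8 substrate groups (rows, with the number of members) in 9 comparisons (columns). Each cell gives the members called higher and lower. Amino acid carriers read 4 / 15 in D387A-Cflar and 4 / 15 in C362A-Cflar, and 14 / 3 for D387A-Cflar-Casp1 against D387A-Cflar.

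In the C362A set the controls had no part in choosing the members, and the mutants carry Mlkl KO as the controls do. Of 160 members 39 were lower and 7 higher in C362A than in these Mlkl controls, where 7.55% of 19408 genes tested were lower and 10.4% higher, and the median of the members was -0.45. Slc2a2 was at 24.3, 28.5 and 27.1 RPKM in the controls and at 0.695, 0.179 and 0.688 in C362A (-5.68 ± 0.36, adjusted p = 2.17e-08). Slc47a1 was at 12.4, 17.2 and 20.6 RPKM against 0.480, 0.445 and 0.657 (-4.98 ± 0.25), and Slc5a11 at 30.7, 39.3 and 36.7 against 5.19, 3.46 and 4.25 (-3.05 ± 0.20). No control embryo overlapped a C362A embryo in these genes. Slc26a3 changed by -2.56 ± 0.21, Slc26a6 by -2.60 ± 0.16, Slc6a20a by -2.59 ± 0.26 and Slc15a1 by -1.42 ± 0.16. Slc5a1 stood at 127, 126 and 119 RPKM in the controls and at 107, 90.3 and 110 in C362A and was not called. Amino acid carriers fell in 9 of 26 cases and rose in 3, organic ion carriers fell in 6 of 16 and lipid and vitamin carriers in 6 of 17.

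Members higher in C362A were Slc16a3 (1.77 ± 0.18), Slc6a14 (1.72 ± 0.22), Slc25a22 (1.59 ± 0.17), Slc43a3 (1.48 ± 0.17), the riboflavin carrier Slc52a3 (1.28 ± 0.16), Slc7a5 (1.24 ± 0.20) and Slc31a2, a copper carrier of internal membranes (1.00 ± 0.13, lost with DESeq2 and other settings). Slc25a22 was at 28.3, 33.2 and 30.2 RPKM in the controls and at 83.5, 94.3 and 97.6 in C362A, and Slc16a3 at 11.2, 9.70 and 10.3 against 44.3, 27.4 and 35.2. Summed enterocyte markers were 14735 to 18383 RPKM in C362A against 29552 to 48492 in the controls, with 5 of 8 called lower. Myeloid markers summed to 626 to 759 RPKM in C362A and 329 to 498 in C362A-Cflar against 75.2 to 118 in the controls, and 5 of 6 were called higher in each and 1 lower in C362A-Cflar. Erythroid markers were lower in C362A than in the controls in 4 of 6 cases, at a summed 599 to 826 RPKM against 776 to 2406, and of 4 hepatocyte markers 2 were lower (median -3.50), at 2.90 to 5.34 RPKM against 9.75 to 57.3. In addition 1 neuron and glia marker was lower and 1 acinar marker higher. The part of these cells in the carrier levels was not tested.

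C362A-Cflar embryos had 67 members lower and 6 higher than the Mlkl controls, with 11.2% and 13.4% of all genes, and a median of -0.75. Slc2a2 was at 0.00726, 0.0597 and 0.0525 RPKM (-9.32 ± 0.48, adjusted p = 4.33e-09), Slc47a1 changed by -6.18 ± 0.28 and Slc23a1 by -5.91 ± 0.42, or by -7.20 without the third C362A-Cflar embryo. Slc34a3 was at 0.222, 0.914 and 3.43 RPKM against 30.7, 43.1 and 42.0 in the controls (-4.65 ± 0.52), the third embryo being the highest of its group for this gene, and without it the change was -6.06. The 6 that rose were Slc16a3 (2.68 ± 0.18), Slc6a14 (1.87 ± 0.22), Slc7a5 (1.66 ± 0.20), Slc2a1 (1.40 ± 0.16), Slc7a1 (1.22 ± 0.21) and Slc1a5 (1.20 ± 0.15). Summed enterocyte markers were 2364 to 7242 RPKM, with 6 of 8 called lower. Pancreatic acinar markers were higher in 3 of 4 cases, with a highest sum of 157 RPKM against 21.6 in the controls and a median sum of 31.8 against 11.2. Smooth muscle markers were higher in 2 of 5 cases (median 0.90), at 3158 to 3960 RPKM against 1303 to 2080. Of 4 hepatocyte markers 1 was higher and 1 lower, and 1 general epithelial marker was higher and 1 neuron and glia marker lower. The part of these cells was not tested.

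Compared directly with C362A, the loss of Cflar went with 30 members lower and 0 higher, with 4.62% of all genes lower and 1.45% higher. At an unadjusted edgeR p under 0.05, 13 members were higher, and DESeq2 and limma-voom called 0 higher as well. Slc2a2 (-3.65 ± 0.57, adjusted p = 0.00071), Slc23a1 (-3.53 ± 0.41) and Slc34a3 (-2.87 ± 0.50) fell most. The third C362A-Cflar embryo held most of the reads of the last pair, with 8, 14 and 61 reads of Slc23a1 and 12, 54 and 205 of Slc34a3 in the 3 embryos, and without it the changes were -4.82 and -4.29. Slc25a22, higher in C362A, was at 33.9, 31.6 and 52.9 RPKM in C362A-Cflar, and fell by 1.22 on the log2 scale against C362A (adjusted p = 0.000371). Enterocyte markers moved the same way, with 7 of 8 called lower than in C362A at a median of -1.96. Hepatocyte markers were higher in 2 of 4 cases (median 3.77), although their sums overlapped, at 0.932, 1.21 and 58.2 RPKM in C362A-Cflar against 2.90 to 5.34 in C362A. In addition 1 acinar and 1 smooth muscle marker were higher and 1 myeloid marker lower, and the part of these cells was not tested.

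C362A-Casp1 embryos differed from the controls in 11 members lower and 4 higher, with 3.73% and 6.79% of all genes. Slc47a1 (-2.99 ± 0.22), Slc2a2 (-2.02 ± 0.29) and Slc26a1 (-1.51 ± 0.26) were lowest, and Slc43a3 (1.95 ± 0.17), Slc25a22 (1.73 ± 0.17), Slc31a2 (1.17 ± 0.13) and Slc6a14 (1.02 ± 0.22) were higher. Without the first control embryo the changes of Slc31a2 and Slc6a14 were 0.99 and 0.92 and were not called, and the call of Slc6a14 was also lost without the third control embryo (0.99), without the second C362A-Casp1 embryo (0.79), with limma-voom and without the filter. Slc43a3 reached 115, 119 and 105 RPKM against 27.7, 27 and 33.3. Markers of neurons and glia (Elavl4, Tubb3, S100b and Sox10 among them) were lower than in the controls in 5 of 6 cases, at a summed 10.1 to 17.2 RPKM against 21.8 to 39.3, and enterocyte markers were higher in 2 of 8, at 45703 to 57794 RPKM. Hepatocyte markers were lower in 2 of 4 cases (median -2.43), as was 1 marker each of smooth muscle and fibroblasts, and 1 erythroid marker. The part of these cells in the carrier values was not tested. Against C362A, Casp1 loss went with 30 members higher and 2 lower, with 5.60% and 5.72% of all genes. Slc2a2 rose by 3.66 ± 0.34 to 7.27, 4.89 and 7.56 RPKM, Slc5a11 by 2.55 ± 0.20, Slc6a20a by 2.31 ± 0.26 and Slc26a3 by 2.30 ± 0.21. The 2 that fell were Slc16a3 (-2.52 ± 0.18), to 5.22, 7.70 and 5.69 RPKM, and Slc25a24 (-1.16 ± 0.19). Beside these, enterocyte markers were higher than in C362A in 6 of 8 cases (median 1.54) and myeloid markers lower in 5 of 6 (median -1.93), at a summed 113 to 128 RPKM against 626 to 759, and their part was not tested.

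The D387A-Cflar and C362A-set comparisons share no library, so their lists can be set against each other. Of the 71 members lower in D387A-Cflar 35 were lower in C362A as well, which is 49.3% of the first list and 89.7% of the 39 lower in C362A. With C362A-Cflar 65 were shared, 91.5% of the D387A-Cflar list and 97.0% of the 67. Of the 9 that rose in D387A-Cflar 3 (Slc16a3, Slc7a5 and Slc6a14) rose in C362A, 33.3% and 42.9% of the lists, and 6 in C362A-Cflar, 66.7% and 100% of the lists. Over all 18196 genes tested in both sets, the lower lists of D387A-Cflar and C362A shared 1182 genes, 46.8% and 83.0% of the lists, and those of D387A-Cflar and C362A-Cflar 1785, 70.7% and 84.4%. For higher genes the shares were 55.8% and 59.1% with C362A and 75.8% and 61.3% with C362A-Cflar. The shares of members and of all genes were not tested against each other. No member was called in opposite directions in D387A-Cflar and C362A. The matching count over all genes was not made, so nothing about the members is read from this.

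The change with Casp1 loss could be compared between the backgrounds. The pairs differ at the Casp8 allele and also at Cflar, which is deleted in D387A-Cflar and intact in C362A, so the alleles cannot be told apart in this test. The difference (D387A-Cflar pair minus C362A pair) was called in 21 members, positive in 19 and negative in 2, with 4.90% and 0.825% of 19643 genes. It was 4.15 ± 0.79 for Slc2a2 (adjusted p = 0.00117), 3.90 ± 0.59 for Slc34a3 (adjusted p = 0.000157) and 3.73 ± 0.47 for Slc23a1 (adjusted p = 3.23e-05). The starting levels were unequal, since Slc34a3 was at 0.293 to 0.495 RPKM in D387A-Cflar and 9.41 to 13.4 in C362A, and after Casp1 loss at 10.8 to 18.6 and 27.1 to 33.9. The 2 in the other direction were Slc39a14 (-1.19 ± 0.21) and Slc12a2 (-1.08 ± 0.19). Slc12a2 stood at 47.6, 70.0 and 43.8 RPKM in D387A-Cflar and at 22.6, 21.9 and 23.3 with Casp1 lost, against 17.3, 18.7 and 20.6 in C362A and 16.9, 16.5 and 17.6 in C362A-Casp1. Without the second D387A-Cflar embryo the difference for Slc12a2 was -0.84 and not called.

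**Figure D5:**
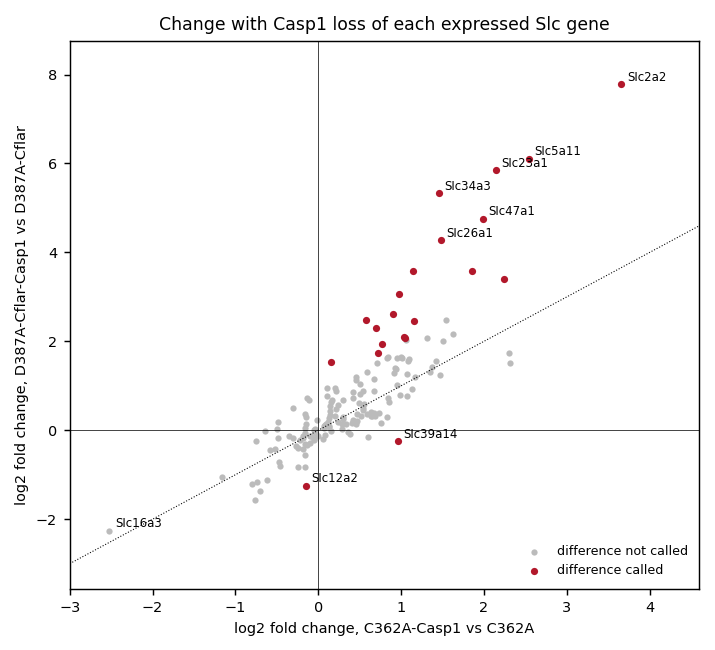
Log2 fold change with Casp1 loss of each of the 160 members in the C362A pair (horizontal axis) and the D387A-Cflar pair (vertical axis), with red points where the difference between the pairs was called and a dotted line of equality. Slc2a2 lies at 3.66 and 7.78, Slc16a3 near equality at -2.52 and -2.27, and Slc39a14 and Slc12a2 are the called points below the line.

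MEFs gave no called member. Of 160 members 131 passed the filter there, and 0 were higher or lower in Casp8 D387A KI Cflar KO Mlkl KO than in Mlkl KO fibroblasts, with 0.0711% of 15465 genes higher and 0.00% lower. At an unadjusted edgeR p under 0.05, 10 members were higher and 3 lower, and DESeq2 and limma-voom called 0. Changes ran from -1.14 for Slc52a3 to 2.48 for Slc39a4, which was at 0.0279, 0.133 and 0.0632 RPKM in Mlkl KO and 0.328, 0.425 and 0.524 in the mutant (adjusted p = 0.23). Of the members that moved in intestine, Slc2a2 was at or below 0.0177 RPKM in MEFs and Slc34a3 at 0, whereas Slc7a5 was at 99.0, 119 and 114 RPKM in Mlkl KO and at 107, 122 and 121 in the mutant. Of all 160 members 98 averaged 5 RPKM or more in Mlkl KO MEFs.

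Genes that assemble, anchor or transcribe intestinal carriers were counted from a list of 26, of which 25 were tested in intestine. In D387A-Cflar 10 were lower and 1 higher than in D387A, beside 14.0% and 10.2% of all genes. Lower were among others the brush border scaffold Pdzk1 (-4.98) and its partner Pdzk1ip1 (-3.70), the transcription factors Creb3l3 (-3.76), Maf (-2.54), Prdm1 (-1.95), Gata6 (-1.54) and Gata4 (-1.08), and the iron reductase Cybrd1 (-1.23), all as log2 fold changes. Emb, an ancillary protein of lactate carriers, was higher (1.46). Hnf4a (-0.49), Cdx2 (-0.55) and the brush border protein Vil1 (-0.82) were not called. The list had 1 higher and 7 lower in C362A (10.4% and 7.55% of all genes), 1 and 12 in C362A-Cflar (13.4% and 11.2%), and 8 and 1 with Casp1 loss in D387A-Cflar (8.88% and 4.51%). It had 5 and 1 with Casp1 loss in C362A (5.60% and 5.72%) and with Cflar loss in C362A 6 were called, all lower (4.62%). Against D387A, 2 were called in D387A-Cflar-Casp1 (3.01%) and 3 in D387A-Cflar-Casp1-Ifnar1 (6.49%), all lower.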

How the data were processed

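RNA was sequenced from 30 intestines in 10 groups, 2 of them Mlkl KO, and 6 MEF libraries in 2 groups, 3 per group. The labels give no set to the Mlkl KO intestines, which were placed in the D387A or the C362A set from the style of the sample names. With GSNAP the authors mapped the reads to GRCm38/mm10, and for each library they deposited a table of raw read counts per gene beside RPKM values. The counting program, annotation and strand setting are not given in the sources used here, and the labels and the methods name different library kits, so antisense and overlapping genes may share reads. The deposited RPKM chose the members, and the deposited counts gave every other value. Symbols were matched to GENCODE, which held 52489 of the 52636 genes listed, 21896 of them protein-coding.

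Counts were filtered with filterByExpr (minimum count 10, minimum total 15), scaled by TMM and fitted with edgeR 4.0.16 in R 4.3.3 by the quasi-likelihood test, with genotype as the only term and 1 fit for each of the D387A set, the C362A set and MEFs. Members were called at a log2 fold change past 1 in size and a Benjamini-Hochberg adjusted p under 0.05 over all genes tested. Standard errors were derived from each fold change and its F statistic. Levels are RPKM on TMM-scaled library sizes, scaled within each set. No source says that the 3 libraries of a group came from separate litters, so p-values measure the spread between these embryos. The difference in Casp1 effect was an interaction contrast in a fit of all 30 intestines. The replicate numbers of the MEFs paired the samples (same-number correlations of deviations from group means of 0.346 to 0.513 in 3 pairs). The alternatives were DESeq2 1.42.0, limma-voom (limma 3.58.1), RLE size factors, no filter, a mean of at least 50 reads, fits of the 2 groups alone or without the 3 controls of the rule, a replicate block, leaving out each library, and thresholds of 2 and 20 RPKM for membership. The edgeR script was tested on simulated data.

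Named genes were a fixed list of 41 textbook intestinal carriers, of which Slc2a5, Slc1a1, Slc7a11, Slc4a4 and Slc4a1 were not members, the 3 members with the largest rise and the 3 with the largest fall in each comparison whose groups did not overlap, those next to the threshold and the 3 highest. Slc17a5, Slc35c2, Slc37a2, Slc7a1, Slc38a2 and Slc52a3 were named after their values were seen. The members and all lists were chosen with earlier results of these data known. Some genes of these lists are not reported here.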

Additional observations from a re-analysis of the deposited data

Results flagged for a closer look

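The change with Casp1 loss differed between the D387A-Cflar and the C362A backgrounds, by the interaction test, in 14 of the named members, given as the log2 change in the D387A-Cflar pair minus that in the C362A pair. Over all 19643 genes 4.90% were called in the positive and 0.825% in the negative direction. Slc2a2, Slc5a11 and Slc23a1 were named partly for their rise in the D387A-Cflar pair, 1 side of this test, so the count of 14 is not evidence about the members. Slc2a2 started from 2, 7 and 4 reads in D387A-Cflar. Among sugar, phosphate and vitamin carriers the difference was 4.15 for Slc2a2 (7.78 against 3.66), 3.90 for Slc34a3 (5.33 against 1.46), 3.73 for Slc23a1 (5.84 against 2.14), 3.59 for Slc5a11 (6.11 against 2.55) and 1.62 for Slc34a2 (2.30 against 0.69). It was 2.82 for the sulfate carrier Slc26a1 (4.27 against 1.48), 2.80 for the organic cation carrier Slc47a1 (4.76 against 1.99) and 2.11 for the lysosomal Slc46a3 (3.06 against 0.98). The amino acid carriers Slc6a19, Slc38a3 and Slc7a8 differed by 1.75, 1.39 and 1.09, and the fatty acid transport protein Slc27a4 by 1.32. Slc39a14 (-1.19) and Slc12a2 (-1.08) differed in the other direction. The call was lost for Slc34a2, Slc38a3 and Slc12a2 without the second D387A-Cflar embryo, for Slc7a8 without the second D387A-Cflar-Casp1 embryo, without the first C362A embryo and with limma-voom, and for Slc47a1 with limma-voom (2.42, adjusted p = 0.093). Without the second D387A-Cflar-Casp1 embryo the difference for Slc47a1 was 2.16.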

How the results depend on the processing

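Of the counts of members called, 116 of 129 values under other settings and 85 of 90 with a library left out stayed within 1.5 times the value given. With membership at 20 RPKM, which leaves 73 members, the counts were 44 for D387A-Cflar, 14 for D387A-Cflar-Casp1, 22 for D387A-Cflar-Casp1-Ifnar1 and 6 for D387A-Cflar-Casp1-Fadd against D387A, 32 for Casp1 loss and 5 for Ifnar1 loss in the D387A set, 24 for C362A, 42 for C362A-Cflar and 6 for C362A-Casp1 against the Mlkl controls and 18 for Casp1 loss in C362A, from fewer genes. With membership at 2 RPKM the C362A-Casp1 count was 23. Fitting the 2 groups alone gave 6 for Ifnar1 loss, and without a filter 1 member was called in MEFs. Leaving out 1 library gave 15 to 31 for D387A-Cflar-Casp1 against D387A, 4 to 20 for Ifnar1 loss and 5 to 13 for Fadd loss. Of 245 log2 fold changes of named genes, 36 of 1828 values lost the call under other settings and 83 of 1554 with a library left out, and 0 changed sign. The cause of these changes was not tested. Few reads limit the size of the largest falls, such as the 2, 7 and 4 reads of Slc2a2 in D387A-Cflar.

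Same-numbered intestines did not deviate together (median r 0.038, from -0.40 to 0.449, in the D387A set and -0.043, from -0.53 to 0.413, in the C362A set), so the numbers were read as names. With the replicate number as a block the counts were 80, 23, 44 and 12 for the comparisons with D387A in the order above, 56, 11 and 8 for Casp1, Ifnar1 and Fadd loss, 47, 73 and 15 for C362A, C362A-Cflar and C362A-Casp1, 32 and 30 for Casp1 and Cflar loss in C362A, 21 for the difference in Casp1 effect and 0 in MEFs, all within 1.5 times the values without it.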

Other observations

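Among the textbook intestinal carriers that were too low in control intestine to be members, Slc7a11, the cystine-glutamate exchanger, was at 0.0373, 0.0339 and 0.0552 RPKM in D387A and at 0.741, 0.831 and 0.986 in D387A-Cflar (log2 fold change 4.30). The values of Slc7a11 are given as a description without a test. These levels stand for 6, 8 and 14 reads against 169, 183 and 243, so the gene passed the filter through the groups where it is high and the size of the change rests on a few reads in D387A. It was higher by 3.27 in C362A and by 3.71 in C362A-Cflar on the log2 scale, and changed by -3.20 and -2.56 with Casp1 loss in the D387A-Cflar and C362A pairs. The fructose carrier Slc2a5 was at 2.19, 2.47 and 3.08 RPKM in D387A and at 0.410, 0.623 and 0.532 in D387A-Cflar (-2.31 ± 0.22, edgeR adjusted p = 7.26e-08). With Casp1 loss Slc2a5 changed by 0.06 in the D387A-Cflar pair (adjusted p = 0.86) and by 1.34 ± 0.32 in the C362A pair (adjusted p = 0.00582), a difference of -1.26 (adjusted p = 0.0352), opposite in sign to that of Slc2a2. The glutamate carrier Slc1a1 (0.76) and the sodium-bicarbonate cotransporter Slc4a4 (0.38) were not called in D387A-Cflar. Slc4a1, the anion exchanger of red cells, was 1.93 higher in D387A-Cflar-Casp1 than in D387A and changed by -4.10 with Ifnar1 loss.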
